A study of Mus musculus with 6 samples.

Results

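Potassium channel subunits were taken as every non-control probe whose gene name in the scanner files starts with Kcn. That rule gave 129 probes of 87 gene names, out of 41174 probes of 27376 gene names on the array. The names cover pore-forming and accessory subunits and 1 non-coding RNA, Kcnq1ot1. RNA came from the spinal cord of 3 Dhtkd1 null and 3 wild-type mouse samples, all male, C57BL/6 and 8 weeks old, and each sample was labelled with Cy3 on an array of its own. Dhtkd1 encodes a mitochondrial enzyme of lysine breakdown, and the comparison sets cords without it against cords with it. The labels do not give the deleted part of the gene or say that each sample is a separate animal, so p-values measure the spread between samples as labelled, which may be technical.

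Potassium channels let potassium ions leave or enter cells and so set the resting potential, end action potentials and time repetitive firing. Voltage-gated subunits assemble as tetramers, inward rectifiers hold the resting potential and clear potassium into glia, tandem-pore channels carry leak, and calcium- or sodium-activated channels follow bursts of activity. In the cord, Kv1 channels lie beside the nodes of Ranvier of myelinated axons, Kv7 channels at nodes and axon initial segments, and Kir4.1, encoded by Kcnj10, in astrocytes and oligodendrocytes. Accessory proteins such as the Kcnip and Kcnab families change gating and surface delivery.

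Each value below is the log2 of the processed spot signal minus the 75th percentile of its array, so 0 is the 75th percentile, and levels of different probes are not compared. Probes are 60 bases long, and the 30 bases at their 5′ end are shown in lower case for 11 probes, with their mm9 positions and strand. Among genes with 1 tested probe, Kcnip2 and Kcna5 had the largest differences called higher, and Kcne2 and Kcne1l were those called lower. The other 7 show where the probes of a gene lie whose probes gave the same call (Kcns2) or different calls (Kcnc2, Kcnk5), and probes of a gene are called first, second and so on in the order of their mm9 positions.
Kcnip2, chr19:45868494-45868553, minus strand: aagatggacagaaacaaggacggcgtggtg
Kcna5, chr6:126482573-126482632, minus strand: ggcttttgagaattcattcttttcattttg
Kcne2, chr16:92298155-92298214, plus strand: gttccaagccattctagacccattgcactg
Kcne1l, chrX:138739364-138739423, minus strand: cccaaatgcatctcttatattggttcagtt
Kcns2, first probe, chr15:34769949-34770008, plus strand: gatgagtatctagaatgccaatttctctgt
Kcns2, second probe, chr15:34771247-34771306, plus strand: ttggcaaggctatagaatccagggatccaa
Kcnc2, first probe, chr10:111893475-111893534, plus strand: cccctctggcaagctcgcctacattttgca
Kcnc2, second probe, chr10:111902698-111902757, plus strand: gatatccaaacactgattgcctcattttct
Kcnc2, the third probe, chr10:111902778-111902837, plus strand: tctacatagaaatctaaccatttcttggtc
Kcnk5, first probe, chr14:20959684-20959743, minus strand: aatattttttaatgaactgttatttttata
Kcnk5, second probe, chr14:20961425-20961484, minus strand: tacagatggctggaagtacagcatccaagg

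Arrays were alike in brightness, with 75th percentiles between 952 and 1057 intensity units, and 78.4% to 82.0% of spots passed the scanner software's test against background. The 6 arrays lay on 2 slides, with the 3 null samples and wild-type replicate 2 on slide 1 and wild-type replicates 1 and 3 on slide 2, so only wild-type replicate 2 shares a slide with null samples. Differences within slide 1 therefore set the 3 null samples against that sample alone. Dhtkd1 itself was at -4.05, -4.05 and -4.17 in null replicates 1, 2 and 3, against -2.91, -3.02 and -3.10 in wild-type replicates 1, 2 and 3 (probe at chromosome 2, 5817910 to 5817969), and its other probe was also lower in every null sample. All 10 astrocyte, 13 oligodendrocyte, 10 neuron and 7 motor neuron markers were well above background on all 6 arrays, so the markers of the labelled tissue were present. Markers of tissues next to the cord varied by sample: the mean deviation of Schwann cell markers was -1.24, 0.18 and -0.08 in null replicates 1, 2 and 3, against 1.75, -0.72 and 0.11 in wild-type replicates 1, 2 and 3. Sensory neuron markers had a mean deviation of 1.76 in null replicate 3 and between -0.49 and -0.28 in the other 5 samples. All 8 blood and marrow markers were higher in null samples, against 57.7% of all probes, with 1 at an unadjusted p under 0.05, against 5.4%. All 7 meningeal fibroblast markers were lower, with 0 at an unadjusted p under 0.05, against 2.73% of all probes.

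Most potassium channel probes gave a measurable signal in the cord. Of the 129 probes, 105 were well above background on all 6 arrays and 11 on none. Probes well above background on 3 or more arrays were tested, which kept 113 Kcn probes of 80 genes (87.6%, against 80.6% of all probes). The 16 probes left out include every probe of 7 genes: Kcnv2, Kcnh3, Kcnj1, Kcnj15, Kcnj5, Kcnk16 and Kcnmb3. For 3 of the probes left out a bound on the difference of means could be given, and each rests on 1 array. The other arrays of the brighter group were not well above background, so the bound is no lower limit for the group. For a Kcne1 probe with 0 null arrays well above background, the bound was 2.22-fold lower in null samples. It came from wild-type replicate 1 at -2.85, with the other 5 samples between -8.40 and -7.06. The tested Kcne1 probe differed by 0.04 (SE 0.27). For a Kcnj4 probe the bound was 1.58-fold lower in null samples, through wild-type replicate 3 at -4.53 with the other 5 samples between -7.34 and -6.67. For a Kcnk10 probe the bound was 1.58-fold higher in null samples, through null replicate 1 at -3.39 with the other 5 samples between -8.99 and -6.99. The bound sets the mean of all 3 arrays of the brighter group against the lowest signal well above background, or the probe's own signal where higher, on each array of the other group. A left-out probe for Kcnv1 was likewise well above background on 1 wild-type array alone, but its bound was under 1 and no fold is given.

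No potassium channel probe passed at an adjusted p under 0.05 by limma, and nor did any of the 33191 probes tested. At an unadjusted p under 0.05, 15 Kcn probes of 13 genes were higher in null samples, which is 13.3% of those tested, against 5.4% of all probes tested. In the other direction 4 probes of 4 genes were lower, 3.54% against 2.73% of all probes. Groups did not overlap for 22 probes with all null samples higher, 19.5% against 9.26% of all probes, and for 3 with all null samples lower, 2.65% against 4.94%. For these 25 probes the exact two-sided permutation p was 0.1, the smallest that a design of this size can reach. The median log2 difference, null minus wild-type, was 0.08 over the Kcn probes and 0.03 over all probes, and 78 Kcn probes were higher and 35 lower (69.0% higher, against 57.7% of all probes). Over all probes 1793 were called higher and 905 lower, and this split moved with the scaling. With quantile normalization it was 1263 higher (3.81%) and 1359 lower (4.09%), against 14 and 5 of the Kcn probes, and with median centring 1200 higher (3.62%) and 1273 lower (3.84%), against 10 and 4. The sizes were small: the 15 probes were 1.15-fold to 1.67-fold higher and the 4 probes 1.27-fold to 1.83-fold lower.

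**Figure D1:**
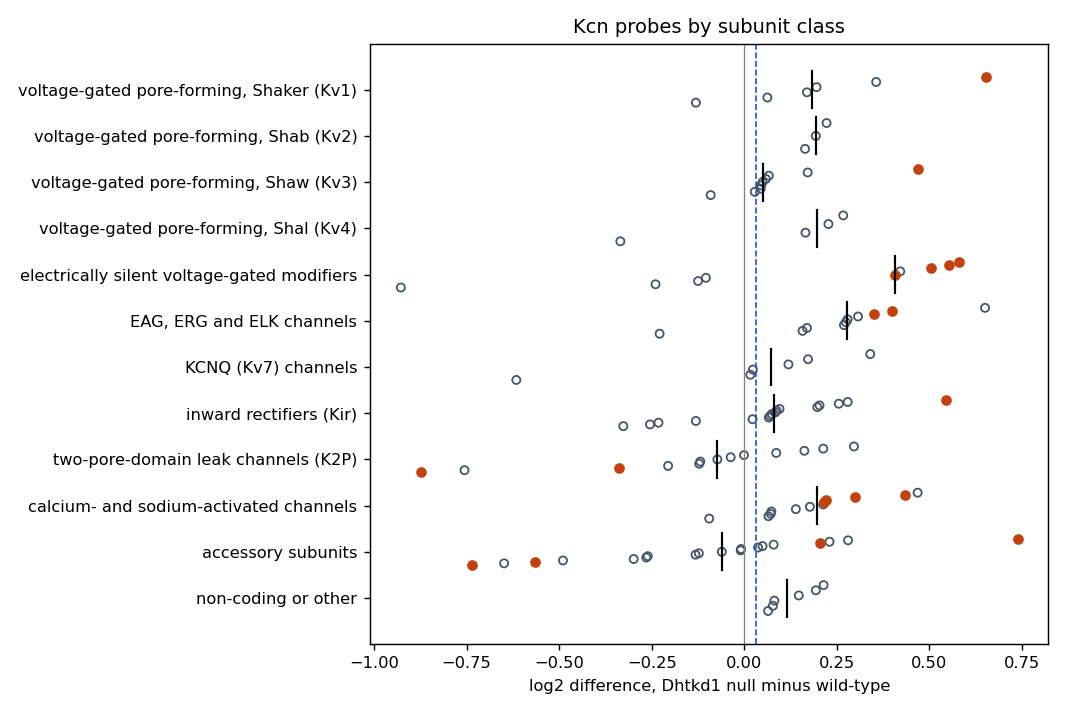
Each point is 1 tested Kcn probe, placed by its log2 difference (Dhtkd1 null minus wild-type, horizontal axis) within its subunit class (vertical axis). Filled points had an unadjusted p under 0.05, black bars are class medians and the dashed line is the median of all probes tested, 0.03. Of the classes, only the tandem-pore channels (labelled two-pore-domain) and the accessory subunits had medians below 0 under the reported settings, and no class had called probes in both directions except the accessory subunits.

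The share of probes called higher differed with brightness. When all probes tested were cut into 3 equal bands of brightness, in the dimmest band, 11.1% of Kcn probes and 8.35% of all probes were called higher. In the middle band the shares were 20.6% and 5.05%, and in the brightest 8.82% and 2.8%. Base composition of the probes was close, with a median GC content of 40.0% for the 15 probes called higher and 43.3% for the 94 not called.

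Among the pore-forming voltage-gated subunits of the Kv1, Kv2, Kv3 and Kv4 families, 22 probes were tested and 19 of them were higher in null samples (86.4%, against 57.7% of all probes), 2 at an unadjusted p under 0.05 (9.09%, against 5.4%). The direction depended on the scaling in the Kv3 family. With median centring 4 of its 9 probes were higher and 5 lower, and its median turned to just below 0. With slide as a block 6 were higher and 3 lower. Kcnc1 and Kcnc2 have 3 tested probes each. Kcna5, a Kv1 subunit, was at -2.05, -1.94 and -1.98 in null replicates 1, 2 and 3, against -2.60, -2.94 and -2.38 in wild-type replicates 1, 2 and 3. The null samples lay close together, and all 3 were above the highest wild-type sample. The log2 difference was 0.65 (SE 0.15, 1.57-fold; unadjusted p 0.00500, adjusted p 0.464 by limma) and 0.95 within slide 1. Kcnc2, a Kv3 subunit of fast-firing interneurons, was higher at its first probe, with -2.92, -3.15 and -3.06 in null samples, against -3.27, -3.55 and -3.72 in wild-type samples. That is a log2 difference of 0.47 (SE 0.14, unadjusted p 0.0147, adjusted p 0.552). Its other probes differed by 0.04 (SE 0.10) and 0.05 (SE 0.10), so the call rests on 1 of 3 probes.

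The main Kv1 subunits of myelinated axons differed little. Kcna1 averaged 5.96 ± 0.04 in null and 5.90 ± 0.14 in wild-type samples (SD, n = 3 each), and Kcna2 averaged 1.37 ± 0.20 in null and 1.18 ± 0.25 in wild-type samples. Kcna6 differed by -0.13 (SE 0.10), Kcna4 by 0.17 (SE 0.09) with the groups apart, and Kcna3 by 0.36 (SE 0.19). Kcnd2, a Kv4 subunit of dorsal horn neurons, had separate groups at 1 of its 2 probes, at 1.74, 1.64 and 1.69 in null samples, against 1.62, 1.45 and 1.19 in wild-type samples (difference 0.27, SE 0.12). Probes for Kcnb2, Kcnc1, Kcnc4, Kcnd1 and Kcnd3 had differences from -0.34 (Kcnd1) to 0.23 (Kcnd3), and none was called. General neuron markers were 3 higher and 7 lower with a median difference of -0.05, and motor neuron markers 1 higher and 6 lower with a median of -0.10. Of the markers of excitatory and inhibitory neurons 5 were higher and 2 lower, and their median was 0.10, and 0.25 within slide 1. In these 3 lists 0 markers were called, against 5.4% of all probes called higher and 2.73% lower. The part of these markers in these results was not tested.

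Electrically silent subunits form no channel alone and join Kv2 subunits to change their gating. Of 9 tested probes in this class, 4 were called higher (44.4%, against 5.4% of all probes) and 0 lower (against 2.73%). Kcns2 accounts for 2 of the 4. With 1 probe per gene, 3 of 8 were called higher, and the class median was 0.15. Leaving out wild-type replicate 2 or null replicate 1, or using normexp, left 1 called higher, and leaving out wild-type replicate 3 or null replicate 2 left 2, and with slide as a block 3 were called higher and 2 lower. Kcns2 was higher at both of its probes. The first probe was at -4.88, -4.72 and -4.33 in null samples, against -5.03, -5.23 and -5.20 in wild-type samples (log2 difference 0.50, SE 0.16, unadjusted p 0.0183). The second probe, which lies further along the same strand, was at -5.25, -5.47 and -5.43 in null samples, against -5.57, -6.07 and -6.17 in wild-type samples (0.55, SE 0.18, unadjusted p 0.0200). Both probes of the gene therefore separated the groups. Under the alternatives that keep all samples, the difference was 0.17 to 0.58 at the first probe and 0.08 to 0.69 at the second. The probes were called in 10 of 12 and 10 of 11 of these, and in 4 and 3 of the 6 fits with 1 sample left out. Kcng2 was at -1.75, -1.87 and -1.95 in null samples, against -2.11, -2.86 and -2.35 in wild-type samples (0.58, SE 0.20). Kcnf1 was at -3.31, -3.43 and -3.22 in null samples, against -3.62, -4.05 and -3.52 in wild-type samples (0.41, SE 0.16). For both genes wild-type replicate 2 was the lowest sample, and within slide 1 the differences were 1.00 for Kcng2 and 0.73 for Kcnf1. Kcns1 and Kcns3 differed by -0.24 and -0.10, Kcng4 by -0.13 and Kcnv1 by 0.42, none of them called. Kcng3 had the most negative difference of all tested Kcn probes, -0.93 (SE 0.77), which came from wild-type replicate 2 at -4.07, with the other 5 samples between -7.31 and -6.49. Wild-type replicate 2 also had the highest mean deviation of motor neuron markers, 0.70, with the other 5 samples between -0.43 and 0.15, and the part of this in the Kcng3 value was not tested. The class median of 0.41 turned to -0.06 with normexp background correction.

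The EAG, ERG and ELK channels, the Kcnh family, are slow voltage-gated channels of which Kcnh2 is best known from the heart. Here 9 of 10 tested probes were higher in null samples, against 57.7% of all probes, with a class median of 0.28. Of the 10, 2 were called higher, against 5.4% of all probes, and 0 lower, against 2.73%. Kcnh5, an EAG channel of neurons, was at -0.35, -0.35 and -0.47 in null samples, against -0.59, -0.85 and -0.78 in wild-type samples. All null samples lay above all wild-type samples, with a log2 difference of means of 0.35 (SE 0.10, 1.27-fold, unadjusted p 0.0105, adjusted p 0.521 by limma). Within slide 1 the difference was 0.46. Kcnh8, an ELK channel, was at -2.08, -2.28 and -2.20 in null samples, against -2.46, -2.85 and -2.46 in wild-type samples (0.40, SE 0.13). The file places this probe on the strand opposite to the gene in RefSeq (GRCm38.p6), as it does for only 1 other of the 96 Kcn probes whose gene strand was listed, so it may not read the Kcnh8 transcript. The 2 calls of the class include this Kcnh8 probe and are to be read with that limit. Kcnh2 was the family member lower in null samples, by -0.23 (SE 0.15). At 1 of 3 Kcnh7 probes null replicate 3 stood at -3.52, with the other 5 samples between -6.12 and -4.95. That sample also had the highest mean of sensory neuron markers, and the part of this was not tested.

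The KCNQ subunits, which carry the M current that damps repetitive firing, had 0 of 6 tested probes called. Kcnq3, which forms neuronal M channels with other KCNQ subunits, differed by 0.12 (SE 0.13). Kcnq1 and both probes of Kcnq5 differed by 0.02, 0.17 and 0.34. The class median of 0.07 turned to just below 0 with quantile normalization and with the authors' value table.

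Inward rectifiers had 1 called probe of 16 tested, which was called higher (6.25%, close to the 5.4% of all probes). It reads Kcnj4, a strong rectifier of neurons. It was at -3.89, -3.77 and -3.44 in null samples, against -4.02, -4.32 and -4.39 in wild-type samples (log2 difference 0.54, SE 0.16, 1.46-fold; unadjusted p 0.0146, adjusted p 0.552 by limma). Its second probe was among those not tested, with a bound in the opposite direction that rests on 1 array. Kcnj10, which encodes Kir4.1, was at 6.09, 5.51 and 5.81 in null samples, against 6.18, 6.06 and 6.15 in wild-type samples. Null replicate 1 lay within the wild-type range, and the difference of -0.33 (SE 0.16) was not called (unadjusted p 0.0806). Of 13 oligodendrocyte markers 2 were higher, against 57.7% of all probes, and 11 lower, with 2 called lower, against 2.73% of all probes. Their mean deviations were 0.06, -0.20 and -0.16 in null replicates 1, 2 and 3, against -0.18, 0.33 and 0.16 in wild-type replicates 1, 2 and 3. Astrocyte markers were 5 higher and 5 lower, with 1 called higher, against 5.4% of all probes. In bulk tissue fewer cells of a type and less RNA per cell cannot be told apart, and the part of either in Kcnj10 was not tested.

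Kcnj16, which pairs with Kir4.1, differed by 0.07 to 0.10 at its 3 probes, all within 1 SE of 0. Subunits of the G protein-gated rectifiers, which open on signals from neurotransmitter receptors, were not called. Kcnj3 was at -1.83, -1.97 and -1.93 in null samples, against -2.09, -2.02 and -2.20 in wild-type samples (0.20, SE 0.09), but a second Kcnj3 probe differed by 0.02 (SE 0.08). Kcnj6 differed by 0.26 (SE 0.13), and Kcnj9 by 0.20 (SE 0.09) with the groups apart and by -0.13 (SE 0.26) at its other probe. Of the subunits of ATP-sensitive channels, Kcnj8, which marks pericytes, differed by 0.28 (SE 0.12) and 0.07 (SE 0.08) at its 2 probes, and Kcnj11 by -0.26 (SE 0.16). Of the 8 pericyte and smooth muscle markers, 2 were higher and 6 lower, with 1 called in each direction. Over all probes 5.4% were called higher and 2.73% lower. Abcc9 is the marker called higher. Kcnj2, Kcnj12 and Kcnj14 differed by 0.09, 0.07 and -0.23.

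Tandem-pore leak channels were the pore-forming class with called probes on the lower side. Of 13 tested probes 9 were lower in null samples. Of the 13, 2 were called lower (15.4%, against 2.73% of all probes) and 0 higher (against 5.4%). With 1 probe per gene, 1 of 10 was called lower. Leaving out wild-type replicate 2 or null replicate 1 or 2, or trend and robust options, left 1 called lower. Leaving out wild-type replicate 3 gave 1 lower and 1 higher. It was 3 lower with quantile normalization or slide as a block, and without wild-type replicate 1 or null replicate 3. Kcnk5, an alkaline-activated leak channel also known as TASK-2, was at -5.47, -5.10 and -4.52 in null samples, against -4.54, -4.32 and -3.62 in wild-type samples (log2 difference -0.87, SE 0.33, 1.83-fold; unadjusted p 0.0378, adjusted p 0.600 by limma). Null replicate 3 overlapped wild-type replicate 1 at this first probe. The second probe was at -7.82, -6.60 and -6.30 in null samples, against -6.00, -5.97 and -6.48 in wild-type samples, a difference of -0.76 (SE 0.41) that was not called. Kcnk7, a silent member of the family, was at -5.10, -5.24 and -5.32 in null samples, against -4.96, -4.85 and -4.83 in wild-type samples (-0.34, SE 0.09, unadjusted p 0.00943), and its second probe differed by -0.21 (SE 0.12).

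Leak channels with a known role in glia and neurons of the cord showed smaller differences. Kcnk1 averaged 2.28 ± 0.04 in null and 2.28 ± 0.06 in wild-type samples (SD, n = 3 each). Kcnk2, an arachidonic acid- and stretch-sensitive channel, differed by -0.07 (SE 0.22), Kcnk3 by -0.04 and -0.12 at its probes, and Kcnk10 by 0.21 (SE 0.12). Kcnk13, a channel of microglia, differed by -0.12 (SE 0.21). Of 9 microglia markers 8 were higher in null samples and 4 were called higher, against 57.7% and 5.4% of all probes. Their mean deviations were -0.01, 0.23 and 0.16 in null samples, against -0.42, 0.03 and 0.01 in wild-type samples. The lowest value was that of wild-type replicate 1, and the part of these markers in the Kcnk13 value was not tested. Kcnk4, Kcnk6 and Kcnk12 differed by 0.09, 0.30 and 0.16. The class median of -0.07 was 0.01 without wild-type replicate 2.

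Channels gated by calcium or sodium had 11 of 12 tested probes higher in null samples (91.7%, against 57.7% of all probes). Of the 12, 4 were called higher (33.3%, against 5.4%), and Kcnn2 accounts for 2 of the 4. With 1 probe per gene, 2 of 8 were called higher, and the class median was 0.125 instead of 0.195. Leaving out wild-type replicate 2 left 0 probes called, leaving out null replicate 2 or 3, or median centring, gave 1 called probe in the class, and leaving out null replicate 1, or a block for the replicate number, gave 2. Kcnn2, a small-conductance calcium-activated channel that sets the afterhyperpolarisation, was higher at both probes. The second was at 2.00, 2.30 and 2.02 in null samples, against 1.80, 1.80 and 1.82 in wild-type samples (log2 difference 0.30, SE 0.10, unadjusted p 0.0253). The first was at -1.64, -1.49 and -1.53 in null samples, against -1.82, -1.78 and -1.73 in wild-type samples (0.22, SE 0.08, unadjusted p 0.0289). The wild-type samples were within 0.1 log2 units of each other at both probes, and every null sample lay above them. Kcnt1 and Kcnt2 encode the sodium-activated channels. Kcnt1 differed by 0.21 (SE 0.08, called), 0.21 (SE 0.11) and 0.47 (SE 0.26) at its 3 probes, and Kcnt2 by 0.44 (SE 0.14, called) and 0.14 (SE 0.10) at its 2. At the called Kcnt2 probe null samples were at -1.29, -1.62 and -1.37, against -1.73, -2.09 and -1.77 in wild-type samples. Kcnma1, the large-conductance pore subunit, averaged -1.79 ± 0.01 in null and -1.87 ± 0.08 in wild-type samples, a difference of 0.07 (SE 0.08). Kcnn1, Kcnn3, Kcnn4 and Kcnu1 differed by 0.07, -0.10, 0.18 and 0.07, and none was called.

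**Figure D2:**
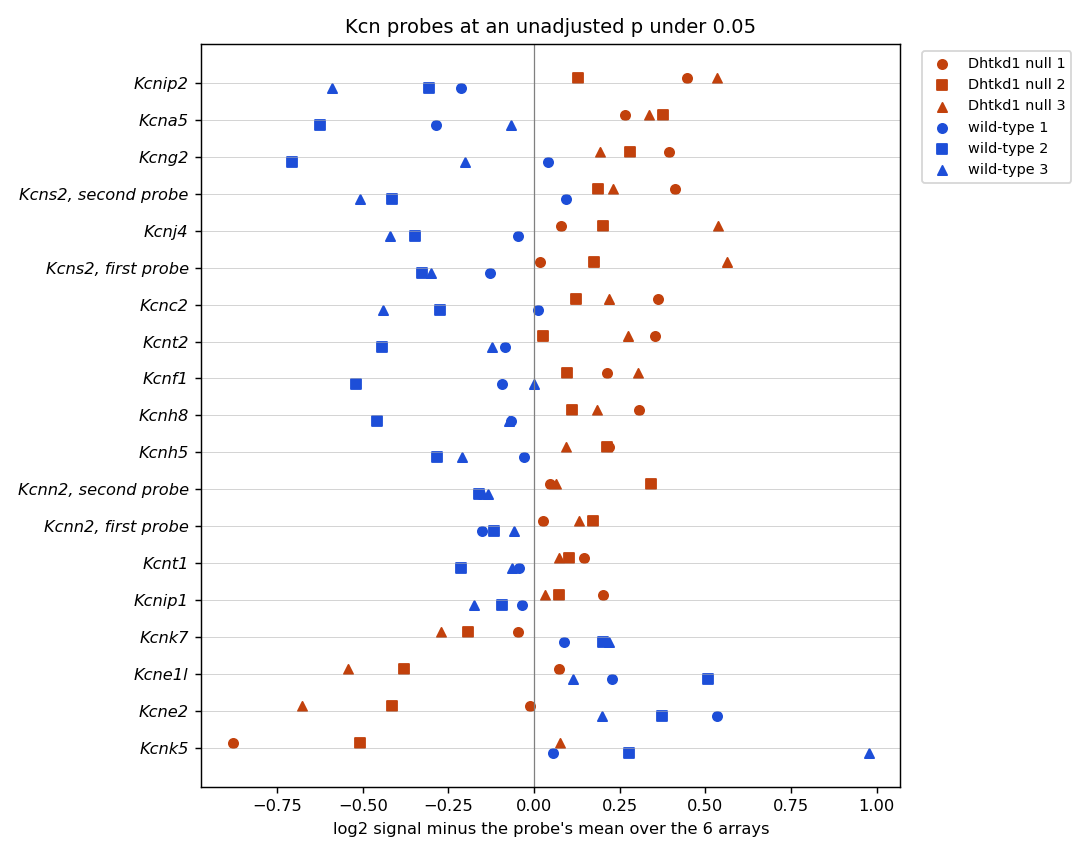
The horizontal axis gives each array's log2 signal minus the probe's mean over the 6 arrays, for the 19 Kcn probes at an unadjusted p under 0.05 (vertical axis). Orange symbols are Dhtkd1 null and blue symbols wild-type samples, and the symbol shape marks the replicate. All 15 probes called higher and 3 of the 4 called lower separate the groups, Kcnk5 does not, and wild-type replicate 2 is the lowest wild-type sample for 9 of the 15.

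Accessory subunits held both the most positive difference of all tested Kcn probes and 2 of the 4 called lower. Of 19 tested probes in the class, 2 were called higher (10.5%, against 5.4% of all probes) and 2 lower (10.5%, against 2.73%). Kcnip2, a calcium-binding partner of Kv4 channels, was at -2.69, -3.00 and -2.60 in null samples, against -3.34, -3.44 and -3.72 in wild-type samples. All null samples lay above all wild-type samples, by a log2 difference of 0.74 (SE 0.15, 1.67-fold; unadjusted p 0.00288, adjusted p 0.414 by limma) and 0.68 within slide 1. Kcnip1, of the same family, was at 0.45, 0.33 and 0.29 in null samples, against 0.22, 0.16 and 0.08 in wild-type samples (0.20, SE 0.08, unadjusted p 0.0499). It was called in 0 of the 6 fits with 1 sample left out and in 7 of the 12 other alternatives. Kcnip3 differed by -0.13 and -0.12 and Kcnip4 by 0.05 and -0.06 at their probes, so the higher values were not shared by the 4 Kcnip genes.

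Kcne2 and Kcne1l encode small membrane-spanning partners of KCNQ and other channels. Kcne2 was at -5.55, -5.95 and -6.21 in null samples, against -5.00, -5.16 and -5.34 in wild-type samples (log2 difference -0.74, SE 0.19, 1.67-fold lower; unadjusted p 0.00797, adjusted p 0.511 by limma). Kcne1l was at 0.97, 0.51 and 0.35 in null samples, against 1.12, 1.40 and 1.01 in wild-type samples (-0.57, SE 0.19, unadjusted p 0.0249). In both, null replicate 1 was the null sample nearest to the wild-type samples. Kcnab2, the main beta subunit of axonal Kv1 channels, averaged 3.32 ± 0.27 in null and 3.58 ± 0.05 in wild-type samples, a difference of -0.26 (SE 0.14) that was not called. Kcnab1 differed by 0.28 (SE 0.20) at its first probe and -0.01 at its second, and Kcnab3 by -0.01. Kcnmb4, the neuronal beta subunit of the large-conductance channel, differed by -0.27 (SE 0.16), and Kcnmb1, Kcnmb2, Kcne1, Kcne3 and Kcne4 had differences from -0.65 (Kcnmb1) to 0.23 (Kcnmb2) with no call. Kcnq1ot1, an antisense non-coding RNA of the Kcnq1 locus, was higher at all 6 of its probes by 0.06 to 0.21, and 0 of them were called.

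**Figure D3:**
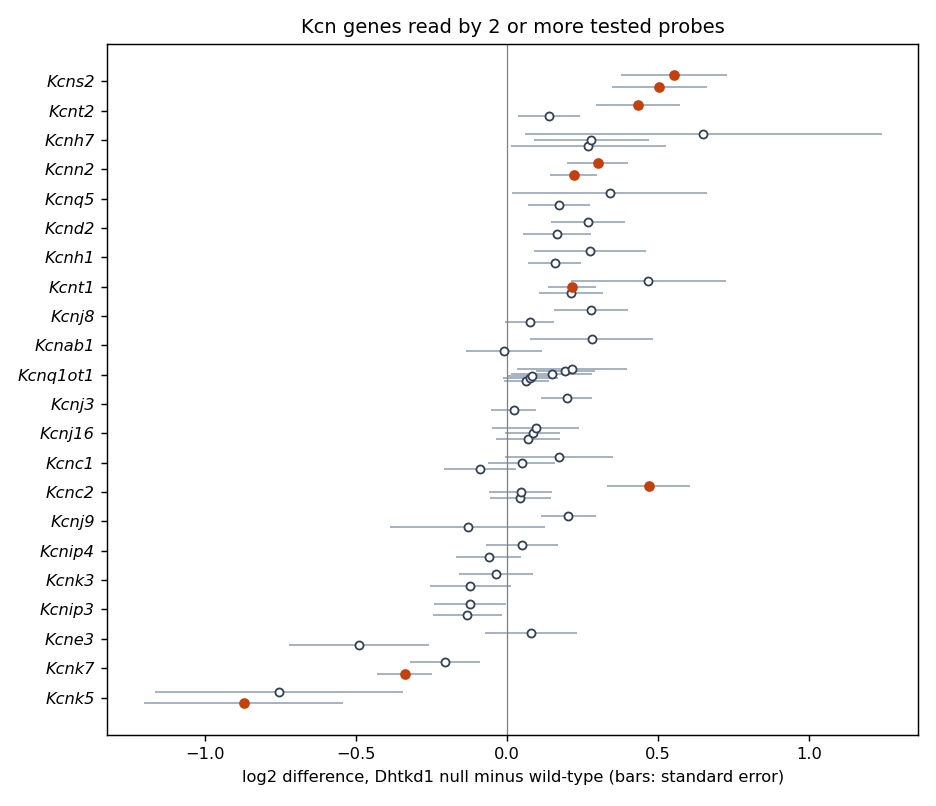
Each point is 1 tested probe of a Kcn gene with 2 or more tested probes (vertical axis), at its log2 difference, Dhtkd1 null minus wild-type (horizontal axis), with bars of 1 standard error. Filled points had an unadjusted p under 0.05. Kcns2 and Kcnn2 have every probe filled, Kcnc2 has 1 filled probe of 3, and 17 of the 22 genes drawn have all their probes on the same side of 0.

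Of the 24 Kcn genes with 2 or more tested probes, all probes of 19 differed in the same direction and 5 had probes on both sides of 0: Kcnab1, Kcnc1, Kcne3, Kcnip4 and Kcnj9. Of the 7 such genes with a called probe, Kcns2 and Kcnn2 were called at every probe, while Kcnc2, Kcnt1, Kcnt2, Kcnk5 and Kcnk7 were called at 1 probe only. The 3 probes of chromosome 18, 2 for Kcnn2 and 1 for Kcng2, were all called higher. On chromosome 7, 0 of the 18 tested probes were called, and 6 of these read Kcnq1ot1. Both chromosomes were picked after the calls were seen, and over all probes 5.4% were called higher and 2.73% lower. Shares over all probes of a chromosome were not computed, so these counts show no pattern by chromosome.

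The number of called probes depended on single samples. Without wild-type replicate 2, 8 Kcn probes were called higher (7.08%, against 6.1% of all probes), 7 of these among the 15, and 2 lower (1.77%, against 2.23%). Without null replicate 1 there were 8 higher (7.08%, against 4.48%) and 7 lower (6.19%, against 3.35%), so the counts in the 2 directions were nearly equal. Without null replicate 3 there were 9 higher (7.96%, against 3.62%) and 5 lower (4.42%, against 1.7%). Without wild-type replicate 1 there were 20 higher (17.7%, against 8.85%) and 5 lower (4.42%, against 4%). Of the 19 called probes, 7 were called in all 6 fits with 1 sample left out: those for Kcna5, Kcnc2, Kcnh5, Kcnj4, Kcnk7, Kcne2 and Kcnip2. Kcnf1 was called in 1 of the 6, and Kcnk5, Kcnt1, Kcne1l and the first Kcnn2 probe in 2. With slide as a block, 13 were called higher (11.5%, against 4.11%), 9 of them among the 15, and 8 were called lower (7.08%, against 3.21%), 2 of them among the 4. All 19 called probes kept their direction in each of the settings where they were tested, and Kcnip2, Kcna5 and Kcnh5 were called in all 18 of them.

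**Figure D4:**
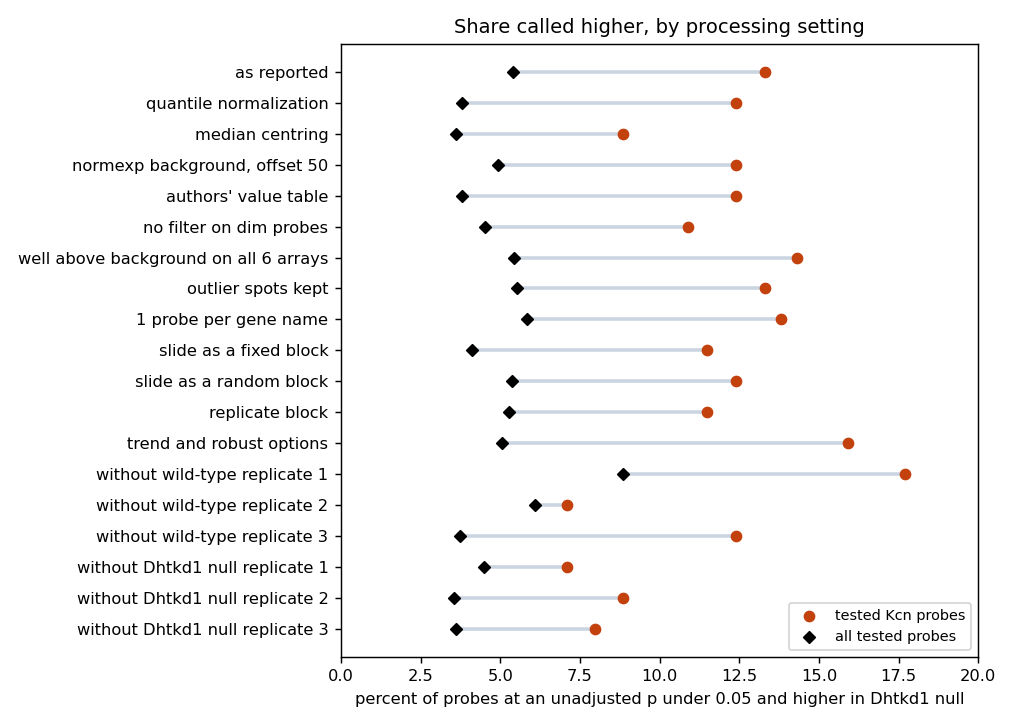
Orange circles give the percent of tested Kcn probes at an unadjusted p under 0.05 and higher in Dhtkd1 null samples (horizontal axis), and black diamonds the same percent over all probes tested, for each processing setting (vertical axis). The circle lies right of the diamond in every setting, and the gap is smallest without wild-type replicate 2, at 7.08% against 6.1%.

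**Figure D5:**
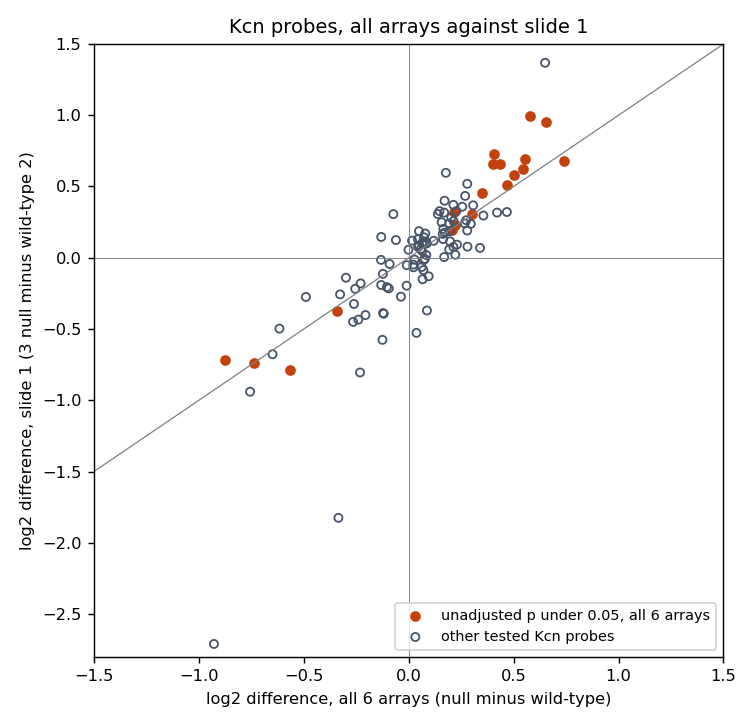
The horizontal axis is the log2 difference over all 6 arrays and the vertical axis that within slide 1, the mean of 3 Dhtkd1 null samples minus wild-type replicate 2, with 1 point per tested Kcn probe and the line of equal values. Filled points had an unadjusted p under 0.05 over all arrays. Of the 19 filled points 16 lie farther from 0 on the vertical axis, and the lowest point is Kcng3, at -0.93 and -2.71.

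Genes whose proteins bind potassium channels or carry sodium and potassium were taken as 64 genes in 9 lists, of which 59 were tested. Of these, 39 were higher and 20 lower in null samples, with 5 called higher (8.47%, against 5.4% of all probes), 1 called lower (1.69%, against 2.73%) and a median log2 difference of 0.10. Abcc9, the regulatory partner of Kcnj8, was at -2.24, -2.10 and -2.11 in null samples, against -2.66, -2.35 and -2.46 in wild-type samples (0.34, SE 0.10, unadjusted p 0.0175). Lrrc26, a gamma subunit of the large-conductance channel, is 1 of the 5 called higher. Its probe was well above background on 3 null arrays and 1 wild-type array. It thus passed the filter mainly through the group where it was higher, so no size is given. The 8.47% includes this probe and is to be read with that limit. The sodium channel gene Scn2a differed by 0.36 (SE 0.13). Of 12 tested sodium channel genes 11 were higher, against 57.7% of all probes. Their mean deviations were -0.02, 0.12 and 0.44 in null samples, against 0.09, -0.35 and -0.28 in wild-type samples. Null replicate 3, the highest here, also had the highest mean of sensory neuron markers, and the part of this was not tested. Hcn3, which encodes a hyperpolarisation-activated channel, differed by 0.29 (SE 0.11). Slc12a4, a potassium-chloride carrier, differed by -0.17 (SE 0.07). With 1 sample left out, Scn2a was called in 1 of 6 fits and Slc12a4 in 0. None of the 15 genes that anchor Kv1 and Kv7 channels at and beside the node was called, and 0 of 12 tested genes of the sodium-potassium pump were.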

How the data were processed

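Total RNA of 6 spinal cord samples was hybridised to 1-colour Agilent arrays (design 014868, mm9). Per the file headers, the authors made the deposited intensity values with Feature Extraction 10.7.3.1, with multiplicative detrending switched on and its further background correction switched off. The deposited table of log2 values has 6 columns with the same median (7.22) and no stated method, and served as an alternative.

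Signals were log2 of the processed intensity minus the array's 75th percentile over non-control spots. Outlier spots (58 to 89 per array) were left out and spots of a probe averaged. Dhtkd1 null minus wild-type was fitted per probe with limma 3.58.1 in R 4.3.3 (lmFit, eBayes, two-sided, Benjamini-Hochberg over 33191 probes) and tested on simulated data. A probe with an unadjusted p under 0.05 is called higher or lower, and differences carry the moderated standard error (SE). The number of arrays limits the precision.

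The members and lists were chosen with earlier results of these data known. Named were called probes, at least 2 genes per class, probes with separate groups, a list of known cord channels, probes with a bound, and called partner genes. Some genes are counted but not reported here by name. Kcn gene names are those of the files. Of the 129 probes, 120 matched the RefSeq table (GRCm38.p6) by accession and 9 by symbol, and 4 further probes with a current Kcn symbol but another name in the files were not used. A list gene was represented by its brightest tested probe. Alternatives were quantile normalization, median centring, normexp (offset 50), the authors' table, other filters, outliers kept, 1 probe per gene, slide or replicate number as a block, trend and robust options, and each sample left out.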

Additional observations from a re-analysis of the deposited data

How the results depend on the processing

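The number of Kcn probes at an adjusted p under 0.05 was 0 in every setting. The count called higher, 15 as reported, was 10 to 18 under the alternatives that keep all samples and 8 to 20 with 1 sample left out, and the median difference was 0.03 to 0.10 and 0.05 to 0.13. The count called lower, 4 as reported, was 8 with slide as a fixed block and 2 to 7 with 1 sample left out. Probes with all null samples lower numbered 3 as reported, 7 with quantile normalization, median centring or the authors' value table (6.92% to 7.16% of all probes), 5 with normexp (5.94%) and 3 to 11 with 1 sample left out (6.92% to 12.9% of all probes), and those with all null samples higher were 26 to 41 with 1 sample left out (11.9% to 21.4%). Fewer samples separate more often by construction, and the cause of the other shifts was not tested. Of 337 repeats of the 19 called probes, 66 were no longer called and 0 changed direction. With the replicate number as a block, 13 probes were called higher (12 of the 15) and 6 lower. Deviations of same-numbered samples correlated at -0.03, -0.09 and 0.30, and those of differently numbered samples at -0.20 to 0.24. Whether the numbers pair the samples was therefore not settled. Dim probes limit the reading of Kcng3, Kcnv1, Kcnmb1, Kcnk5, Kcne2, Kcns2 and Lrrc26. Under the alternatives that keep all samples, the Kcne2 difference was -0.85 to -0.23, and that of the second Kcns2 probe 0.08 to 0.69.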
